A study of Homo sapiens with 4 samples.

Results

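Expression of 10 genes around the canonical Wnt pathway was measured in a human glioma line, the established cell line U87MG: the feedback targets AXIN2, DKK1, RNF43, ZNRF3, NKD1, NKD2 and NOTUM, the paralogues FRAT1 and FRAT2, and CTNNB1, which encodes beta-catenin. A probe set, the group of probes that reports 1 transcript region, was taken where the platform annotation gave it exactly 1 gene symbol and that symbol was one of the 10. This gave 30 probe sets out of 49293 on the array, and 10 genes out of 18132, and every set was kept. The cells carried either the plasmid PC-490, which overexpresses the microRNA miR-490, or its control plasmid PCDNA, so both groups had been transfected. RNA was collected after 48 h, and 2 PrimeView 3' expression arrays were run in each group, each from 100 ng of total RNA. The labels do not say whether the 2 replicates of a group were separate cultures; every p-value here therefore reflects the spread among these 4 samples, which could be technical. All values are the deposited log2 levels, and a level is given against the array median where it is compared with the array as a whole.

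In canonical Wnt signalling a secreted Wnt protein engages a Frizzled receptor and its LRP co-receptor, which stops a destruction complex of axin, APC and the kinase GSK3 from marking beta-catenin for degradation. Beta-catenin then enters the nucleus and, with T-cell factor proteins, turns on target genes. Several of these targets restrain the pathway at successive steps, and their messenger RNAs are widely used as readouts of its activity. FRAT proteins bind GSK3 and hold it away from axin, which favours beta-catenin. FRAT1 has been reported as a target of miR-490, so the comparison asks whether FRAT1 messenger RNA, and the pathway readouts beyond it, differ when miR-490 is overexpressed.

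The hairpin of miR-490 gives 2 mature arms, shown because the seed (bases 2 to 8, in capitals) is the part that pairs with a target. They come from RefSeq on GRCh38.p14, plus strand, with the 3p arm at chr7:136903242-136903263 and the 5p arm at chr7:136903205-136903224.
hsa-miR-490-3p: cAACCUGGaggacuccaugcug
hsa-miR-490-5p: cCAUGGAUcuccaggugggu
A full seed match in a target reads CCAGGTT for the 3p arm and ATCCATG for the 5p arm. Among 2370 mature microRNA names in the table, 0 others shared either seed. The arrays do not report the microRNA itself here, so its overexpression was not checked, and target sites in the messenger RNAs were not analysed here.

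No member passed the test in either direction. With limma and Benjamini-Hochberg adjustment over all 49293 probe sets, 0 of the 30 member sets had an adjusted p under 0.05, beside 0% of all sets, and the smallest adjusted p among them was 0.9. Before adjustment, 3 member sets, 2 of RNF43 and 1 of NKD1, or 10% of them, had a p under 0.05, against 5.15% of all sets. All 3 had mean levels below the array median. Of all sets above that median only 2.6% had an unadjusted p under 0.05 (limma), so the share is higher among dim sets. Of the 30 sets, 21 had a higher and 9 a lower mean in the miR-490 arrays, and the median log2 fold change was 0.07. Over the whole array 24514 sets were higher and 23561 lower, with a median of 0. The member sets are not independent, since 8 report CTNNB1 and 6 report RNF43. Both miR-490 arrays lay outside the range of both control arrays in 8 member sets, 7 above and 1 below, which is 26.7% of them against 31.2% of all sets. With 2 arrays against 2, an exact two-sided permutation test of 1 set cannot give a p below 0.333.

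The arrays as a whole were alike. Their medians lay between 5.15 and 5.17, and all 6 pairs of arrays correlated at r = 0.9975 to 0.9979 across probe sets, pairs within and between groups included. Over the 30 member sets the SD of the log2 difference was 0.261 between the control arrays and 0.168 between the miR-490 arrays, while pairs from different groups gave 0.196 to 0.248. Of markers of a mesenchymal glioma line, VIM, FN1, CD44 and CHI3L1 were above the array median in level and NES was below it. Of 5 astrocyte and oligodendrocyte markers, GFAP, the astrocyte filament, and SOX10 were slightly above it, and SOX2, OLIG2 and S100B were below it. The 4 epithelial markers (EPCAM, CDH1, KRT8 and KRT18) were below the median. So were the leukocyte markers PTPRC and CD3E, the endothelial markers PECAM1 and CDH5 and the neuronal markers RBFOX3 and SYT1. The leukocyte marker CD68 lay above the median by 5.0 on the log2 scale, the neuronal SNAP25 by 3.4 and the endothelial VWF by 0.13. Of the 13 markers of epithelial, leukocyte, endothelial and neuronal cells, 1, CD3E, had an unadjusted p under 0.05 (0.0201, limma), as lower with miR-490, and its level was below the median.

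**Figure D1:**
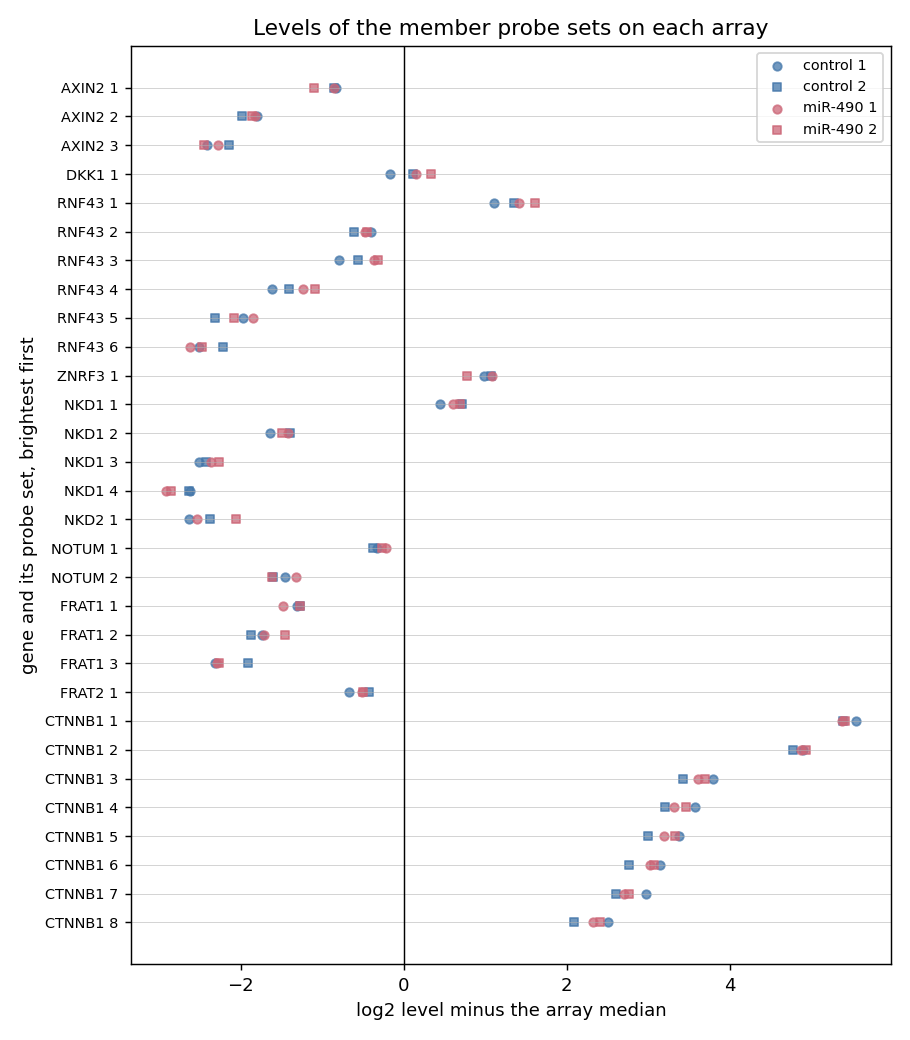
Each row is 1 of the 30 member probe sets, numbered within its gene from the brightest, and each point is 1 array, as its log2 level minus that array's median (horizontal axis; blue, control; red, miR-490). All 8 CTNNB1 sets lie to the right of the median line, and all sets of AXIN2, NKD2, NOTUM, FRAT1 and FRAT2 to the left.

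CTNNB1, the effector of the pathway, had all 8 of its probe sets above the array median in mean level, by 2.33 to 5.43 on the log2 scale. Its brightest set read 10.70 and 10.55 in the control arrays and 10.54 and 10.58 in the miR-490 arrays. The groups overlapped, and the log2 fold change was -0.065 (95% interval -0.28 to 0.15, limma). Control replicate 1 was the highest of the 4. The next set read 10.05 and 9.94 in controls and 10.04 and 10.11 with miR-490, again overlapping, with a log2 fold change of 0.08. Over the 8 sets the log2 fold change ran from -0.065 to 0.095, with 6 higher and 2 lower, and the smallest unadjusted p was 0.345 (limma). The lowest bound of the 8 intervals stood at 0.759 of the control level and the highest at 1.39 times.

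The widest gaps of CTNNB1 were between the control arrays. In its 6 dimmer sets control replicate 1 was above control replicate 2 by 0.36 to 0.41 on the log2 scale, while the miR-490 arrays differed by 0.06 to 0.15. For example, the third set read 8.95 and 8.59 in controls and 8.77 and 8.87 with miR-490. In all 6 of these sets both miR-490 arrays fell between the control arrays, a pattern seen in 16.7% of all sets. In the 2 brightest sets the control gap was smaller, 0.15 and 0.11 in size and in the same direction. These sets measure 1 gene on the same 4 arrays, so they are not independent.

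FRAT1, the reported target, was dim on these arrays. Its 3 sets had mean levels of 2.96 to 3.83, all below the array median, and lay between percentiles 20.2 and 35.3 of all sets. The brightest read 3.84 and 3.89 in the control arrays and 3.68 and 3.90 in the miR-490 arrays. One miR-490 array was below both controls and the other above both, and the log2 fold change was -0.075 (95% interval -0.33 to 0.18, adjusted p = 0.97, limma).

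The second FRAT1 set read 3.41 and 3.29 in controls and 3.45 and 3.71 with miR-490. Both miR-490 arrays were above both controls, though the nearest arrays of the groups, 3.41 and 3.45, were close. The log2 fold change was 0.23 (adjusted p = 0.9, limma), with a 95% interval of -0.065 to 0.52. The third set read 2.83 and 3.25 in controls and 2.87 and 2.91 with miR-490. Here both miR-490 arrays fell between the controls, whose gap of 0.42 was the largest control gap of any member set, and the log2 fold change was -0.15 (95% interval -0.55 to 0.25). Without control replicate 1 this set had a log2 fold change of -0.36, and without control replicate 2 it was 0.06. Leaving out 1 array moved the brightest set between -0.185 and 0.035 and the second between 0.10 and 0.36, in each case by the choice of miR-490 array. The 3 sets therefore had both signs. The mean of the 3 sets had a log2 fold change of 0.002. The lowest bound of the 3 intervals stood at 0.685 of the control level and the highest at 1.44 times. Signals this low are compressed on an array, so a change of the transcript can be understated, and protein was not measured.

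FRAT2, its paralogue and the next protein-coding gene along the chromosome in the RefSeq table, had 1 set, also below the median. It read 4.48 and 4.74 in controls and 4.65 and 4.67 with miR-490, so the miR-490 arrays lay inside the control range. The log2 fold change was 0.05 (95% interval -0.23 to 0.33, limma). Its sign turned to -0.08 without control replicate 1. The interval for FRAT2 reached down to 0.854 and up to 1.25 times the control level.

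The FRAT genes also share upstream sequence. In the 250 bases before each start in the RefSeq promoter table (GRCh38.p14) the longest identical run was 40 bases, shown because both genes carry it, with FRAT1 at chr10:97319227-97319266 on the plus strand and FRAT2 at chr10:97334730-97334769 on the minus strand.
FRAT1: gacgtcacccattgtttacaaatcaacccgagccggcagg
FRAT2: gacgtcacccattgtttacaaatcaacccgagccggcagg
The stretch is letter for letter the same, so nothing in it is capitalised. It ends where the upstream window of FRAT2 ends, and the identity continues past that start, which is not printed. All 3 FRAT1 sets carry the suffix that Affymetrix gives to sets whose probes match several transcripts. Whether FRAT2 transcripts add to the signal of the FRAT1 sets was not tested. The brightest CTNNB1 sets carry that suffix too. RNF43 set 3 (counting from the brightest), the brighter NOTUM set and several CTNNB1 sets carry the suffix for probes that may match unrelated transcripts.

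**Figure D2:**
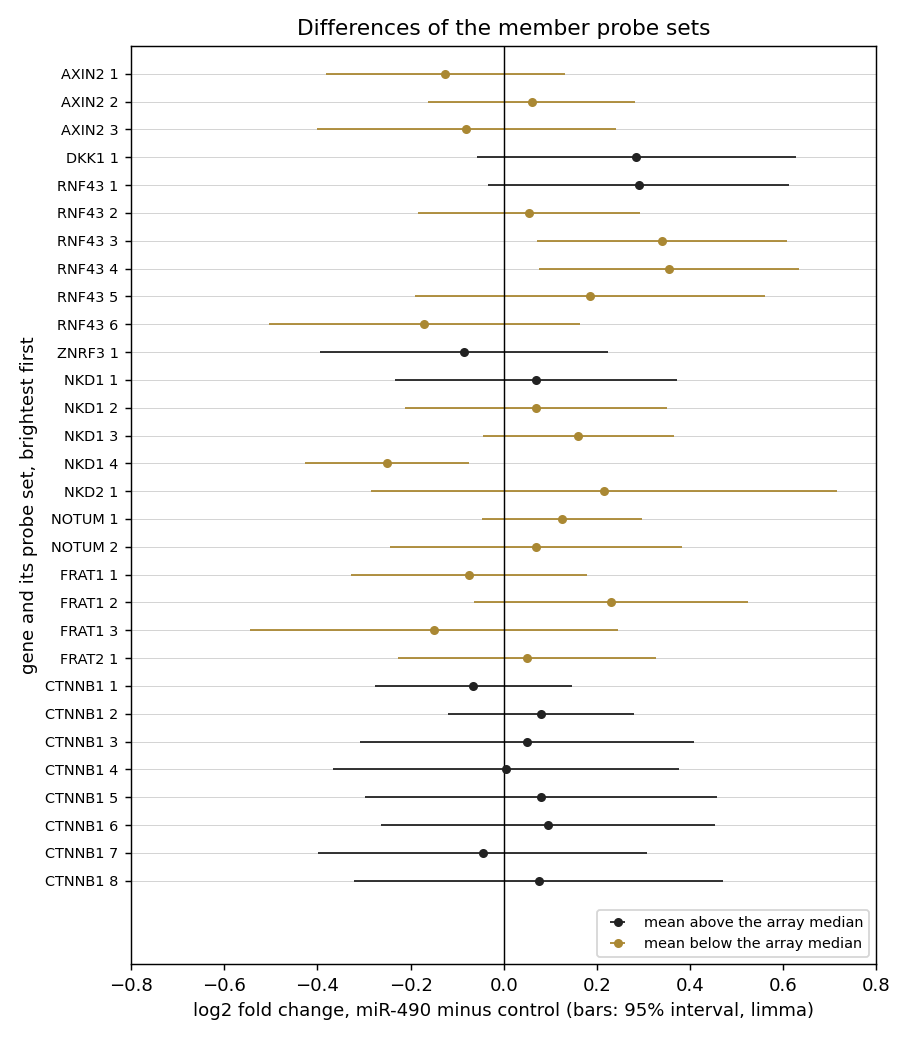
Log2 fold change of each member probe set, miR-490 minus control (horizontal axis; points, limma estimates; bars, 95% intervals; numbering within a gene from the brightest set; black, mean above the array median; ochre, below). The intervals of 27 of the 30 sets include 0, and the 3 that do not, RNF43 sets 3 and 4 and NKD1 set 4, are all below the median.

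Of the secreted feedback inhibitors, DKK1, which blocks the LRP co-receptors, had 1 set close to the array median. It read 4.98 and 5.27 in controls and 5.31 and 5.51 with miR-490. Both miR-490 arrays were above both controls, at 1.22 times the control level, a log2 fold change of 0.285 (95% interval -0.058 to 0.63, unadjusted p = 0.0846, adjusted p = 0.9, limma). The control arrays themselves were 0.29 apart, as far as the groups. Without control replicate 1 the log2 fold change was 0.14, and without control replicate 2 it was 0.43.

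NOTUM, an enzyme that removes the lipid Wnt proteins need for activity, had 2 sets, both below the median. The brighter read 4.82 and 4.78 in controls and 4.94 and 4.91 with miR-490. The groups did not overlap and replicates were close, within 0.04 in each group, but the difference was small. Its log2 fold change was 0.125 (adjusted p = 0.9, limma), with a 95% interval of -0.046 to 0.30. The dimmer set read 3.70 and 3.56 against 3.84 and 3.56, and its groups overlapped.

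RNF43 and ZNRF3 are membrane ubiquitin ligases that remove Frizzled receptors from the cell surface. RNF43 had the largest differences among the members. Its brightest set, the only one of 6 above the array median, read 6.26 and 6.51 in controls and 6.57 and 6.78 with miR-490. The groups did not overlap, and the miR-490 level was 1.22 times the control level; the log2 fold change was 0.29 (95% interval -0.034 to 0.61, unadjusted p = 0.0689, adjusted p = 0.9, limma). Without control replicate 1 the log2 fold change was 0.165, and without miR-490 replicate 2 it was 0.185.

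A pair of dimmer RNF43 sets gave differences of the same size. One read 4.36 and 4.60 in controls and 4.79 and 4.85 with miR-490, at 1.27 times the control level (unadjusted p = 0.0229, limma). The other read 3.54 and 3.75 against 3.92 and 4.08, at 1.28 times (unadjusted p = 0.0227, limma). Neither passed over all sets, with adjusted p = 0.9 for each, and the sets measure the same 4 samples. The remaining 3 sets, all below the median, overlapped between groups and had log2 fold changes of 0.055, 0.185 and -0.17. The mean of the 6 sets had a log2 fold change of 0.176 (unadjusted p = 0.0371, adjusted p = 0.905, limma), where 5.29% of all genes had an unadjusted p under 0.05.

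ZNRF3, the homologue of RNF43 with the same role, had 1 set, above the median. It read 6.13 and 6.23 in controls and 6.24 and 5.95 with miR-490. One miR-490 array was the highest of the 4 and the other the lowest, and the log2 fold change was -0.085 (95% interval -0.39 to 0.22, limma). Whether RNF43 and ZNRF3 responded differently was not tested.

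Within the cytoplasm, AXIN2 is the scaffold of the destruction complex that Wnt signalling induces, and it is among the most general readouts of beta-catenin activity. All 3 of its sets were below the array median. The brightest read 4.32 and 4.30 in controls and 4.30 and 4.07 with miR-490. Only miR-490 replicate 2 lay apart, and the log2 fold change was -0.125 (95% interval -0.38 to 0.13, limma). The others gave 0.06 and -0.08, both with overlapping groups, and the 3 intervals together reached from 0.758 to 1.22 times the control level.

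NKD1 and NKD2 encode Naked cuticle proteins, which bind Dishevelled, the relay protein below the receptor. The brightest of the 4 NKD1 sets read 5.60 and 5.88 in controls and 5.76 and 5.86 with miR-490. It overlapped between groups; the log2 fold change was 0.07 (95% interval -0.23 to 0.37, limma). The dimmest read 2.53 and 2.52 in controls and 2.24 and 2.31 with miR-490, both below both controls, with a log2 fold change of -0.25 (unadjusted p = 0.0154, adjusted p = 0.9, limma). That set stood at percentile 5.89 of all sets, near the floor of the array. The other 2 sets of NKD1 had log2 fold changes of 0.07 and 0.16, so the gene's sets had both signs. The single NKD2 set was also dim, at 2.52 and 2.78 in controls and 2.62 and 3.11 with miR-490. It had the widest interval of the members (log2 fold change 0.215, 95% interval -0.29 to 0.72, limma), and its groups overlapped. Without miR-490 replicate 1 the log2 fold change was 0.46, and without miR-490 replicate 2 it was -0.03.

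In 24 of the 30 member sets, 80%, the gap between replicates of one group or the other was larger than the difference between the groups, against 76.4% of all sets. The exceptions were RNF43 sets 1, 3 and 4, NKD1 sets 3 and 4 and the brighter NOTUM set, counting a gene's sets from the brightest. Taking the brightest set of each gene, 6 of the 10 were higher and 4 lower in the miR-490 arrays; their median log2 fold change was 0.06.

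**Figure D3:**
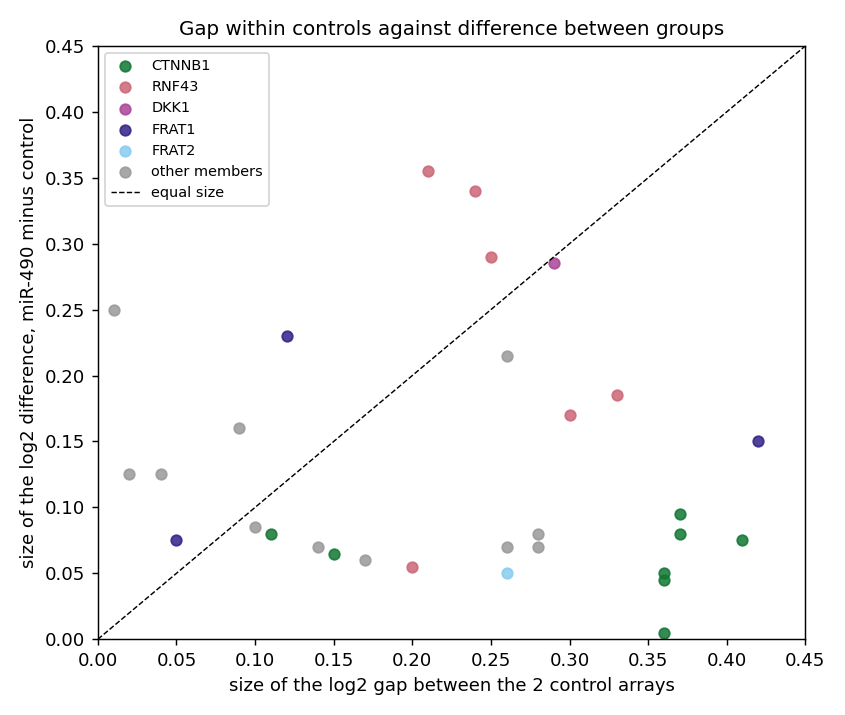
Each point is 1 member probe set: the size of the log2 gap between the control arrays (horizontal) against the size of the log2 difference between the groups (vertical), with a dashed line where they are equal. In 21 of the 30 sets the control gap is the larger; the 6 dimmer CTNNB1 sets lie at gaps of 0.36 to 0.41, and 3 RNF43 sets lie above the line at differences of 0.29 to 0.355.

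Feedback targets are often described by the T-cell factor motif near their start. The core motif CTTTGA, searched on both strands of the window from 250 bases before to 50 after the start, occurred in 12.9% of 35116 promoters. The table held 7 windows of 6 members, CTNNB1, NKD2, DKK1, FRAT1, FRAT2 and RNF43 (2 starts), and the motif occurred in 1 of them, that of DKK1. The entries for AXIN2, ZNRF3, NKD1 and NOTUM are missing. The DKK1 stretch is shown because it carries the motif 2 times, once in each orientation (capitals), at chr10:52314111-52314210 on the plus strand of GRCh38.p14, from RefSeq.
DKK1: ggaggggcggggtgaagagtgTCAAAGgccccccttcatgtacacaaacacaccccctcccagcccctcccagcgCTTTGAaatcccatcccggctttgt
A match is a description of the letters, and where none occurred only these letters in this window are at issue.

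The other genes of the pathway gave no calls. Of 102 listed genes in 6 roles, 97 were measured, by 287 sets, and 0 passed the adjusted threshold (smallest adjusted p = 0.9, limma). Of these sets 152 were higher, 129 lower and 6 equal, with a median log2 fold change of 0.01. At an unadjusted p under 0.05 there were 10, 5 higher and 5 lower, or 3.48% against 5.15% of all sets. Each gene was represented by its brightest set, and the genes named below had the smallest p in their role among brightest sets above the array median. Dimmer sets of several other genes, also above the median, had a smaller p than some of those named (limma). Among them were BTRC, WLS, BIRC5, PPP2CA, DVL2, CSNK1G1, CSNK1D and FZD7.

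Among ligands and the proteins that export or enhance them, 23 of 25 genes were measured, with 8 means higher, 13 lower and 2 equal. WNT5A, a ligand of the non-canonical branch, was high in both groups, at 12.22 and 12.19 in controls and 12.09 and 12.10 with miR-490, a log2 fold change of -0.11 (unadjusted p = 0.151, limma). WNT9B was at 1.11 and WNT3A at 1.07 times the control level. Of the 18 receptors, 6 were higher, 10 lower and 2 equal. LGR4, a receptor for R-spondins, which protect Frizzled from RNF43 and ZNRF3, read 7.33 and 7.04 in controls and 7.04 and 6.96 with miR-490, at 0.88 of the control level. FZD1 and FZD3, both Frizzled receptors, were at 0.963 and 1.05 times. The role labelled secreted inhibitors held 12 genes, of which KREMEN1, KREMEN2 and APCDD1 encode membrane proteins. It split evenly, 6 higher and 6 lower. DKK3 was at 1.10, KREMEN1, a partner of DKK1, at 1.04 and SFRP2, which sequesters Wnt proteins, at 0.889 times the control level.

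Of the relay and destruction complex, 18 of 20 genes were measured, 9 higher and 9 lower, with a median log2 fold change of -0.0025. TNKS2, a tankyrase that marks axin for degradation, read 8.96 and 8.97 in controls and 8.77 and 8.83 with miR-490, a log2 fold change of -0.165 (unadjusted p = 0.0584, adjusted p = 0.9, limma). CSNK1A1, the kinase that primes beta-catenin for GSK3, was at 0.946 and DVL3, a Dishevelled, at 0.917 of the control level. Of 13 measured nuclear factors of 14, 10 were higher and 3 lower. TCF7L1, a T-cell factor that acts mostly as a repressor, read 5.46 and 5.30 in controls and 5.68 and 5.67 with miR-490, at 1.23 times (unadjusted p = 0.0172, adjusted p = 0.9, limma). PYGO2, a beta-catenin cofactor, was at 1.05 and TLE1, a corepressor, at 0.943 times. Of the 13 other transcriptional targets, 6 were higher and 7 lower. MYC read 8.29 and 8.32 in controls and 8.08 and 8.15 with miR-490, at 0.877 of the control level (unadjusted p = 0.0408, adjusted p = 0.9, limma), FOSL1 was at 0.895 and TCF4 at 1.11 times.

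**Figure D4:**
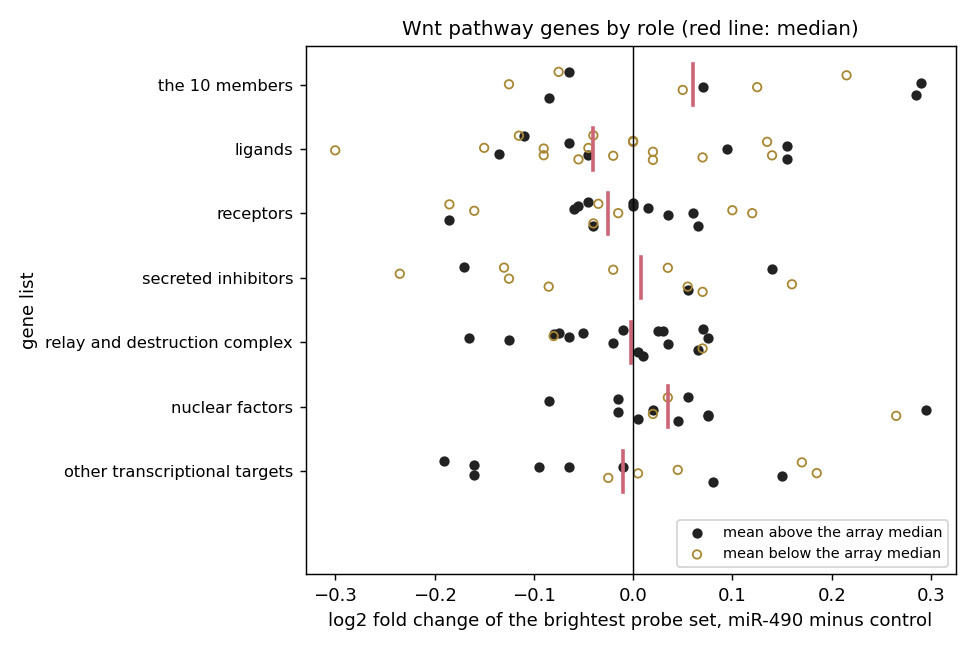
Log2 fold change, miR-490 minus control, of the brightest probe set of each gene (points; filled, mean above the array median; open, below) for the 10 members and the 6 roles of the wider Wnt list, with the median of each as a red line. The medians of the 6 roles lie between -0.04 and 0.035 and that of the members at 0.06.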

How the data were processed

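The authors deposited 1 log2 value for every probe set, computed with RMA according to the submitters' processing notes, in 1 column for each of 4 PrimeView arrays (2 control, 2 miR-490). For the RMA software, the version is not given in the sources used here. RMA makes arrays alike in distribution, which hides a shift common to most transcripts, and it compresses low signals. Detection calls and scan dates were not used here.

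Probe sets were named from the platform annotation: 44988 have 1 symbol, 1832 several and 2473 none. All 49293 sets were fitted with limma 3.58.1 under R 4.3.3 (lmFit, then eBayes without trend or block; 2 residual and 2.73 prior degrees of freedom; two-sided, Benjamini-Hochberg, threshold 0.05). The median standard error was 0.0842, and the number of arrays limits the precision. Simulated arrays of 49293 sets (20 runs) had 50 sets raised by each log2 value, with a spread that did not depend on level. The miR-490 comparison recovered 0% of sets changed by a log2 value of 0.25 or 0.5, 41.7% at 1 and 92.1% at 2. The median number of false calls was 4. Recovery depends on how many sets change, and bright and dim sets were not told apart.

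Values are given for all 10 genes whatever their result, and for up to 3 genes of each role of the wider list, the smallest p among brightest sets above the median. Members and lists were chosen with earlier results of these data known. Listed genes without a single-gene set were not analysed here. Planned promoters of AXIN2 and NKD1 and FRAT protein sequences are not printed. Figures used matplotlib 3.10.9. Alternatives were other normalisations, priors, filters, probe set rules, a replicate block and arrays left out.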

Additional observations from a re-analysis of the deposited data

How the results depend on the processing

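No member set, no set of the wider Wnt list and no set on the whole array passed the adjusted threshold in the reported fit or in any alternative run (limma); the smallest adjusted p on the array was 0.335, with an intensity trend and a robust prior. The count of member sets at an unadjusted p under 0.05 (limma) was 3 of 30 as reported, against 5.15% of all sets. It was also 3 with quantile normalisation (5.17% of all sets) or median centring (5.15%). With an intensity trend it was 4 (4.71%), and it stayed at 4 with a robust prior added (4.67%). It was 0 of 12 sets above the median level (4.91% of all sets kept) and 0 of 10 with the brightest set of each gene (6.18% of all genes). Both leave out the dim sets that made up the count. With the mean of a gene's sets it was 1 of 10 (5.29% of all genes). With the replicate number as a block it was 5 (3.93% of all sets), and the block gave no adjusted call. The deviations of same-numbered arrays from their group means correlated at -0.0844 across sets. Whether same-numbered arrays share a batch was not tested. Leaving out 1 array takes the remaining array of that group to vary as the other group does, so no count at an unadjusted p is given from those fits.

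Of 302 alternative values of the 30 member sets, 22 had the other sign, with 0 calls in either fit. They belonged to 18 sets, of which 16 had a reported log2 fold change under 0.1 in size; the others were NKD2 (0.215) and the dimmest FRAT1 set (-0.15). Of the 30 sets 18 lie below the array median, where a change of the transcript can be understated. A log2 fold change above 0.25 in size occurred in 4.75% of all sets but in 1.65% of those above the median. As no set passed the adjusted threshold, these shares do not show whether changes are understated in dim sets.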
